A study of Homo sapiens with 22 samples.

Results

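SEMA3C and MAP2 are 2 long genes at which E2F3, a transcription factor of the E2F family, had new binding peaks in 22Rv1 cells overexpressing the linker histone variant H1-10. 22Rv1 is an established line of human prostate cancer cells. The genes were chosen by measured values, namely strong E2F3 peaks found with H1-10 overexpression and not without it, so the E2F3 counts and strengths below are a description and carry no test. The members are all peaks that overlap the hg19 span of either gene widened by 5 kb on each side. They number 65 of the 291055 peaks in the 8 deposited lists, with 51 at SEMA3C and 14 at MAP2.

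The lists come from chromatin immunoprecipitation followed by sequencing, which maps where a protein or histone mark sits on DNA. E2F3, the serine 5-phosphorylated form of RNA polymerase II (Pol2S5p) and the histone mark H3K27me3 were each mapped in cells overexpressing H1-10 (H1-10 OE) and in control cells (Ctrl). Pol2S5p was also mapped after an siRNA against E2F3 (siE2F3) and after a control siRNA (siCtrl). The labels of the siE2F3 and siCtrl samples do not mention H1-10, whereas the peak names in both lists carry an overexpression tag for it under its older gene name. Each of the 8 groups had 1 library, so no value below has a replicate error and no p-value is given. The vector, the level of overexpression and the efficiency of the siRNA are not given in the labels.

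SEMA3C encodes semaphorin 3C, a secreted guidance protein that signals to neighbouring cells through neuropilin and plexin receptors and is studied in prostate cancer as a growth-promoting ligand. MAP2 encodes a protein that binds and stabilises microtubules and is best known from the dendrites of neurons. E2F3 activates genes of the cell cycle and usually sits close to transcription start sites. Pol2S5p marks polymerase that has begun transcription and is found mainly near active starts and at active enhancers, and H3K27me3 is the mark left by Polycomb silencing.

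SEMA3C spans 80371854 to 80551675 of chromosome 7 and is read from the minus strand, so that its 5′ end is the higher coordinate. MAP2 spans 210288771 to 210598834 of chromosome 2 on the plus strand. Distances below run from the 5′ end of these spans to the summit of a peak. For peaks outside a widened span they run from the end of the gene span to the nearer edge of the peak. No exon map on hg19 was used here, so positions are given as distances into the gene and not as exons or introns.

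RefSeq gives SEMA3C a pair of start sites on GRCh38, one at its 5′ end and one 3338 bp into the gene. The strongest peaks of Ctrl cells lay at a distance from the 5′ end on hg19 similar to that of the site 3338 bp into the gene. The promoters of both sites are shown. Each runs from 250 bases before the start site to 50 bases after it, and capitals mark CpG dinucleotides. The inner one is chr7:80919002-80919301 and the outer one chr7:80922340-80922639, both on the minus strand.
SEMA3C inner promoter: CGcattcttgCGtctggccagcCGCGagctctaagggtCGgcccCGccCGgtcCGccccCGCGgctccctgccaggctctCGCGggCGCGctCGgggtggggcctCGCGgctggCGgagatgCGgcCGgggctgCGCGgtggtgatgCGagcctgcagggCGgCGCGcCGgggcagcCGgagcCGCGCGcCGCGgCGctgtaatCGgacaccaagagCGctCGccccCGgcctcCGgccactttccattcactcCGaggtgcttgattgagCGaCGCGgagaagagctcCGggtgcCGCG
SEMA3C outer promoter: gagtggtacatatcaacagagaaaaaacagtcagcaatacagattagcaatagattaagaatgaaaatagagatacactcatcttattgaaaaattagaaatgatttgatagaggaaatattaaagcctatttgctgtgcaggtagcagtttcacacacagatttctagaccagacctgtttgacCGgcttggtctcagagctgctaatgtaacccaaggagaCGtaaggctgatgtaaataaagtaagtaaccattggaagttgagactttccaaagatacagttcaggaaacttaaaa

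The inner SEMA3C promoter held 46 CpG dinucleotides at 75.7% G and C, and the outer held 2 at 36.0%. Over 35116 RefSeq promoters of this length the medians were 14 CpG dinucleotides and 58.7% G and C. Neither promoter held the E2F site TTTCCCGC, TTTGGCGC, TTTCGCGC or TTTGCCGC on either strand, which 3.31% of all promoters held. Neither held the shorter cores TCCCGC or TGGCGC, with which the sites TTTCCCGC and TTTGGCGC overlap and which 36.0% of promoters held. For MAP2 the RefSeq table lists 3 start sites, at 155.3, 155.6 and 237.4 kb from the 5′ end of the gene on GRCh38.

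E2F3 was found along nearly the whole of SEMA3C in H1-10 OE cells, with 31 peaks, against 6 peaks in Ctrl cells. The H1-10 OE peaks covered 18.9 kb, or 9.95% of the widened span, against 2.78 kb or 1.46% in Ctrl. SEMA3C thus held 0.722% of all E2F3 peaks of H1-10 OE cells, and 0.0261% of those of Ctrl cells, the whole lists holding 4296 peaks in H1-10 OE and 22988 in Ctrl. Of the 31 peaks, 29 (93.5%) overlapped no E2F3 peak of Ctrl, where the share over the whole H1-10 OE list was 85.9%. When a Ctrl peak within 5 kb counted as shared, 20 of the 31 remained without one, and the whole-list share was not counted at that setting. Since such peaks chose the gene, nothing is read from these counts. Peaks with a -log10 q of at least 5 numbered 15 in H1-10 OE and 5 in Ctrl. Over the whole lists 2465 of 4296 peaks in H1-10 OE and 19763 of 22988 in Ctrl reached it.

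**Figure D1:**
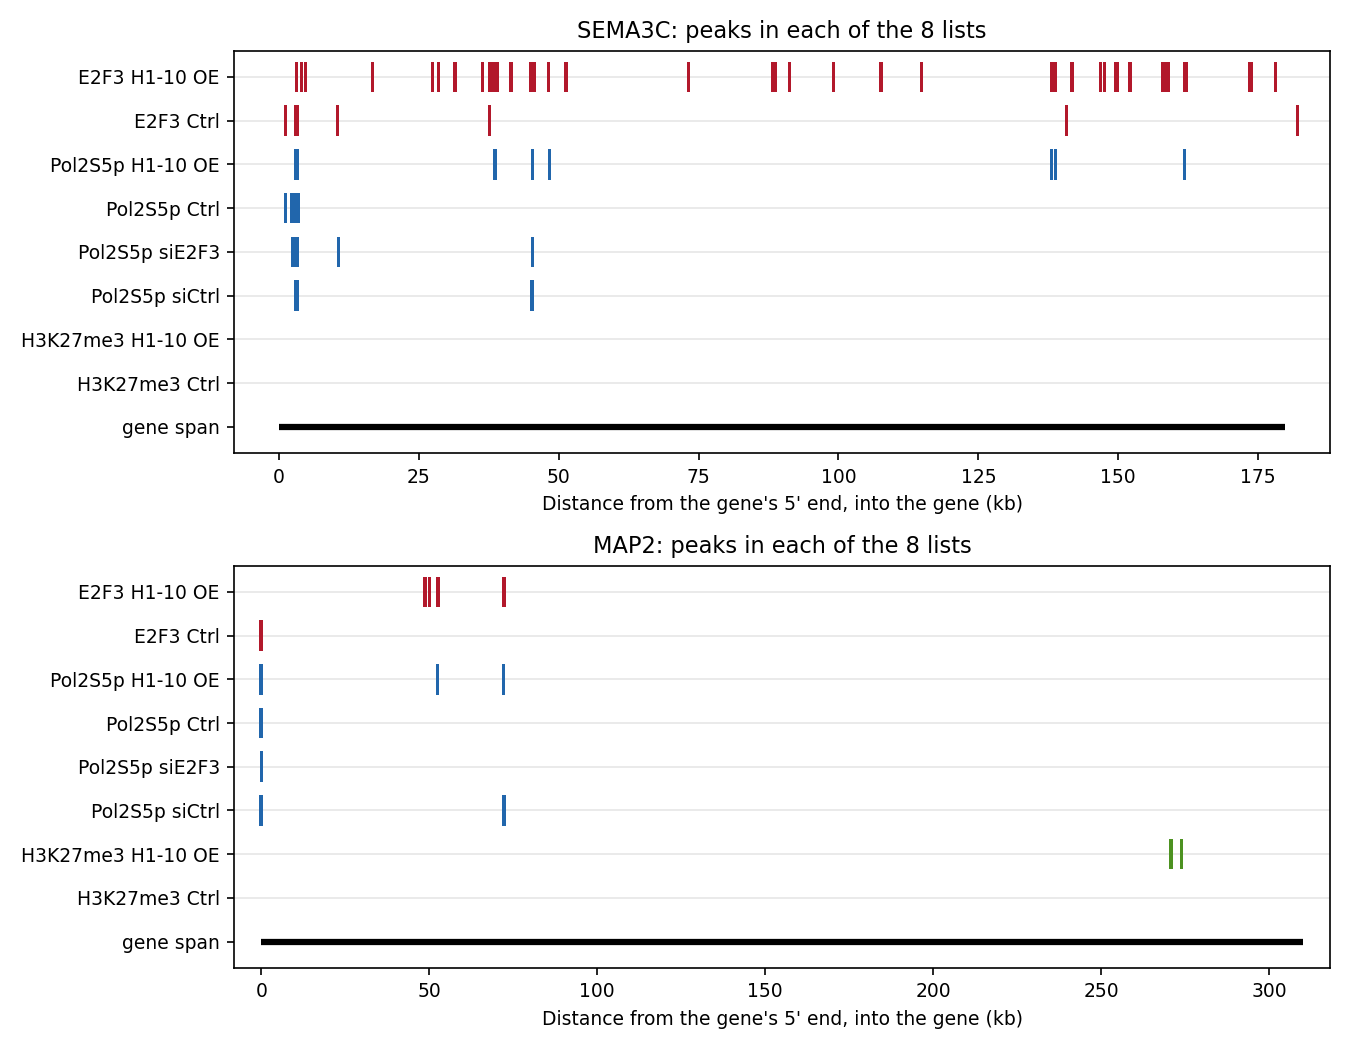
Peaks at SEMA3C (upper panel) and MAP2 (lower panel) in each of the 8 lists, 1 row per list, by distance from the 5′ end of the gene in kb; each bar is 1 peak, and short peaks are drawn wider than they are so that they can be seen. The 31 E2F3 peaks of H1-10 OE spread over SEMA3C, whereas at MAP2 the 4 peaks lie between 48.5 and 72.2 kb.

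The strongest of these peaks stood 45.3 kb inside SEMA3C, on chromosome 7 at 80505694 to 80507077. Its fold enrichment of 77.8 was the highest of the E2F3 list of H1-10 OE, and its -log10 q of 225 ranked first of 4296. Fold enrichment here is the value given by the authors' peak caller. The caller and its background are not named in the sources used here, and the fold is used only to describe peaks within their own list. The E2F3 list of Ctrl had no peak there.

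A second strong E2F3 peak of H1-10 OE followed at 38.7 kb, at 80512310 to 80513538, with a fold of 40.5 and rank 18. Another lay near the far end of the gene at 161.8 kb, at 80389272 to 80390086, with a fold of 22.8 and rank 112. The other 28 peaks were weaker, with folds of 3.30 to 13.3. The median fold of all 31 was 5.70, close to the median of 5.91 of the whole list. The 31 peaks shared 16 distinct fold values, and 10 of them had the same fold of 5.07 with the same -log10 q of 3.18. Much of the spread along SEMA3C was therefore made of weak peaks of like strength. Beside the 3 strong ones there were some peaks between, with folds of 10.1 to 13.3 and ranks of 763 to 429.

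The placing of the peaks along the gene was described and not tested for evenness. With the gene cut into 3 parts of equal length, the 5′ part held 14 of the E2F3 summits of H1-10 OE, the middle part 6 and the 3′ part 11. The gap between neighbouring peaks had a median of 2.49 kb and reached 23.0 kb.

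**Figure D2:**
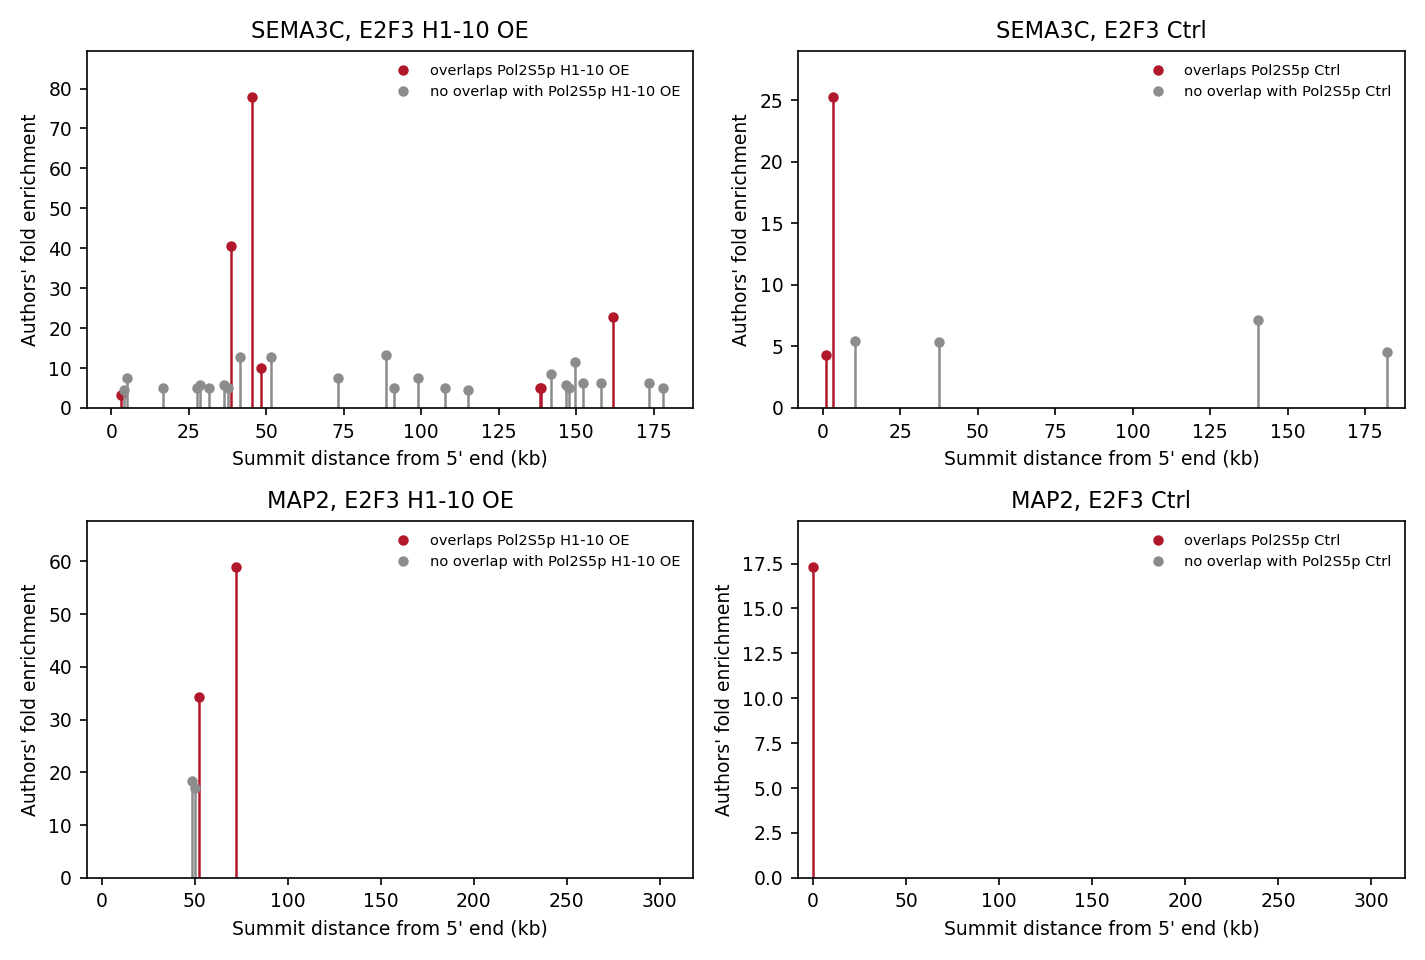
The authors' fold enrichment of each E2F3 peak against the distance of its summit from the 5′ end (kb), for SEMA3C (top) and MAP2 (bottom), with H1-10 OE on the left and Ctrl on the right; every panel has its own vertical scale, and red marks peaks that overlap a Pol2S5p peak of the same condition. In H1-10 OE the highest points lie 45.3 kb into SEMA3C and 72.2 kb into MAP2, and in Ctrl they lie at 3.2 kb and at the 5′ end.

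In Ctrl cells the leading E2F3 peak of SEMA3C lay 3.2 kb from the 5′ end, at 80548137 to 80548959, close to the distance of the inner start site on GRCh38. It had a fold of 25.2 and stood at rank 2079 of 22988, within the strongest 9.04% of its list. The other 5 Ctrl peaks had folds of 4.34 to 7.16. They lay at 1.1, 10.5, 37.6 and 140.6 kb, and 1 lay beyond the 3′ end, within the widened span. SEMA3C thus already had an E2F3 peak near a start site without H1-10 overexpression.

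Of the 6 Ctrl peaks, 4 overlapped no H1-10 OE peak, against 97.4% of the whole Ctrl list. The 2 shared places were the start-site peak and a weak peak at 37.6 kb, whose summits differed by 3 bp between the lists. At the start site the H1-10 OE peak, at 80548345 to 80548665, had a fold of 3.30, the lowest of the 31, and rank 3054 of 4296. The place that led in Ctrl was thus among the weaker ones of the H1-10 OE list. A further pair of H1-10 OE peaks lay just inside it, at 4.0 and 4.9 kb, with folds of 4.48 and 7.60.

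The dense stretch of E2F3 peaks was set against its surroundings in windows as wide as the widened span, 189.8 kb. The SEMA3C window held 31 summits in H1-10 OE and 6 in Ctrl. The next window upstream of the 5′ end held 2 in H1-10 OE and 0 in Ctrl, and the next beyond the 3′ end held 4 and 1. Over 4 windows on either side the highest H1-10 OE count was 5. The nearest H1-10 OE peaks outside the widened span lay 19.8 kb beyond the 5′ end, with a fold of 5.70, and 15.2 kb beyond the 3′ end, with a fold of 10.8. The outermost peaks inside it had summits at 3.1 and 178.1 kb from the 5′ end of the 180 kb gene span, with folds of 3.30 and 5.07.

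**Figure D3:**
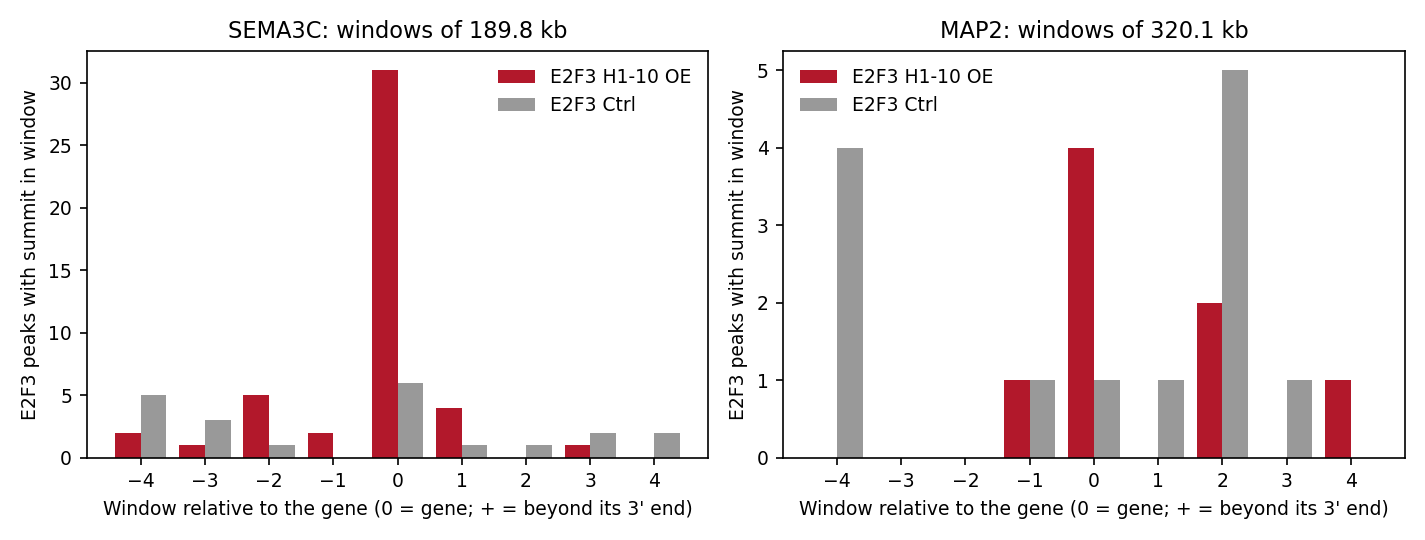
Number of E2F3 peak summits in windows as wide as the widened gene span, at SEMA3C (left, 189.8 kb) and MAP2 (right, 320.1 kb), with H1-10 OE in red and Ctrl in grey; window 0 is the gene and positive windows lie beyond its 3′ end. At SEMA3C the H1-10 OE bar of 31 stands over neighbours of at most 5, and at MAP2 the bars are 4 for H1-10 OE and 1 for Ctrl.

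Of 16302 windows of this width laid end to end over the chromosomes, 1 held at least 31 E2F3 peaks of H1-10 OE (0.00613%), and it lay on chromosome 13. At least 6 Ctrl peaks were held by 4.92% of the windows. Most windows, 85.2%, held no E2F3 peak of H1-10 OE at all. The windows were laid at fixed positions and the SEMA3C window was centred on the gene, so these shares describe the list and are not a test.

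**Figure D4:**
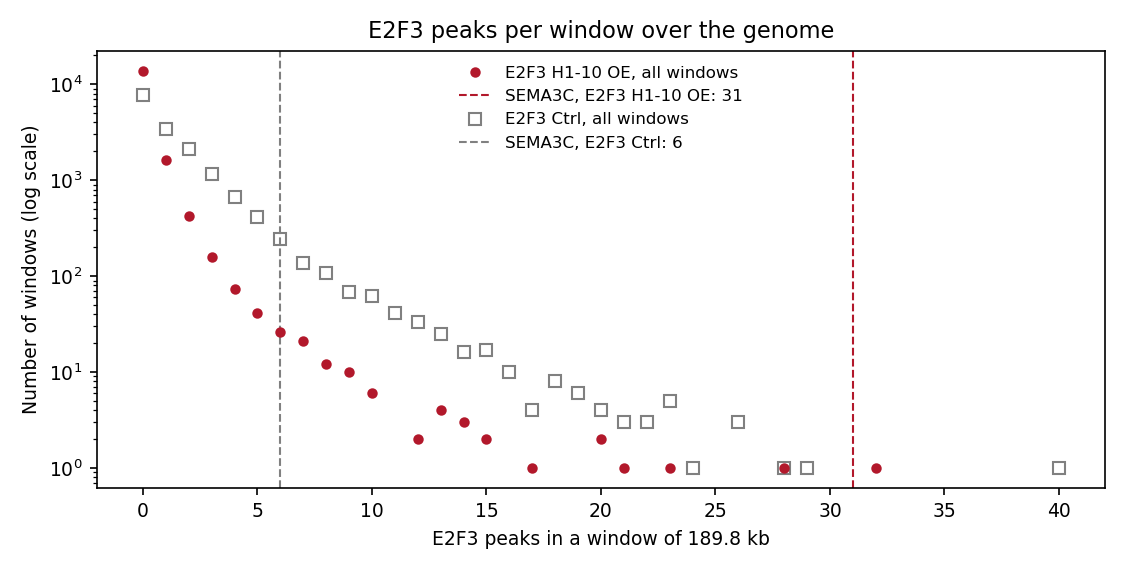
Number of windows of 189.8 kb over the genome (log scale) that hold a given number of E2F3 peaks, for H1-10 OE (filled red circles) and Ctrl (open grey squares); dashed lines mark the counts at SEMA3C, 31 in H1-10 OE and 6 in Ctrl. The H1-10 OE line stands to the right of all but 1 of the red circles, and the Ctrl line stands within the body of the grey squares.

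E2F3 at MAP2 had 4 peaks in H1-10 OE and 1 in Ctrl. The H1-10 OE peaks covered 4.55 kb and lay between 48.5 and 72.2 kb into the gene, and the Ctrl peak covered 0.82 kb at the 5′ end. None of the 4 peaks overlapped the Ctrl peak. Over the whole lists 85.9% of the H1-10 OE peaks and 97.4% of the Ctrl peaks likewise overlapped none of the other list, and such peaks chose the gene, so nothing is read from this. Among windows of 320.1 kb, the width of the widened MAP2 span, 2.58% held at least 4 peaks of H1-10 OE and 64.7% held at least 1 of Ctrl.

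The strongest E2F3 peak at MAP2 in H1-10 OE lay at 72.2 kb, on chromosome 2 at 210360363 to 210361575. Its fold of 58.9 and -log10 q of 160 put it at rank 4 of 4296. The other 3 stood close together, at 48.5, 50.1 and 52.4 kb, with folds of 18.4, 17.1 and 34.2 and ranks 213, 258 and 32. All 4 were thus among the stronger peaks of their list, in contrast to the many weak peaks at SEMA3C. All 4 had a -log10 q of at least 5, as did 2465 of the 4296 peaks of the list.

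The E2F3 peak of Ctrl, at 210288326 to 210289145, had its summit 79 bp before the 5′ end of MAP2. It had a fold of 17.3 and rank 3464 of 22988, within the strongest 15.1% of its list. In H1-10 OE the nearest peaks outside the gene lay 54.9 kb before its 5′ end, with a fold of 5.70, and 492 kb beyond its 3′ end, with a fold of 7.32.

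Pol2S5p at SEMA3C had 7 peaks in H1-10 OE and 2 in Ctrl. Of the 7, 6 overlapped no Ctrl peak (85.7%), where the share over the whole H1-10 OE list was 42.8%. Of the 2 Ctrl peaks, 1 overlapped no H1-10 OE peak, against 41.0% of the whole Ctrl list. The start site was occupied in both conditions, with the summit 3.1 kb from the 5′ end in H1-10 OE and 3.0 kb in Ctrl. Its peak had a fold of 15.5 and a width of 842 bp in H1-10 OE, and a fold of 23.8 and a width of 1780 bp in Ctrl. The second Ctrl peak, at 1.1 kb, was weak, with a fold of 2.91.

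The other 6 Pol2S5p peaks of H1-10 OE lay inside the gene, at 38.5, 45.3, 48.3, 138.1, 138.9 and 161.9 kb. That at 45.3 kb, at 80506051 to 80506694, led by -log10 q, with a value of 38.4 and a fold of 14.4. The other 5 had folds of 3.48 to 6.50. At a -log10 q of at least 5, Pol2S5p kept 4 peaks at SEMA3C in H1-10 OE and 1 in Ctrl. The whole lists kept 24087 of 40626 peaks in H1-10 OE and 21861 of 35493 in Ctrl.

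Overlaps of Pol2S5p with E2F3 were counted next. All 7 Pol2S5p peaks of H1-10 OE overlapped an E2F3 peak of H1-10 OE, where 3.15% of the whole Pol2S5p list did. SEMA3C was chosen for these E2F3 peaks, which cover 9.95% of the widened span, so nothing is read from that difference. Seen from E2F3, 7 of the 31 peaks (22.6%) overlapped Pol2S5p, against 30.2% of the whole E2F3 list. In Ctrl, 2 of the 6 E2F3 peaks overlapped Pol2S5p, against 68.0% of the whole list, and both Pol2S5p peaks overlapped E2F3, against 39.9%. The peak names show 1 processing folder for the E2F3, siE2F3 and siCtrl lists and another for the H1-10 OE and Ctrl lists of Pol2S5p, and its part in these overlaps was not tested.

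The joint peaks of SEMA3C included the 3 strongest E2F3 peaks. At 45.3 kb the E2F3 and Pol2S5p summits of H1-10 OE lay 3 bp apart, and at the start site 6 bp apart. At the remaining 5 places the summits lay 45 to 174 bp apart. The 7 E2F3 peaks with Pol2S5p had a median fold of 10.1 and the 24 without had 5.70, with highest folds of 77.8 and 13.3. Over the whole list these medians were 6.45 with Pol2S5p and 5.70 without. Requiring a -log10 q of at least 5 left the 3 strongest E2F3 peaks as joint in H1-10 OE, and the start-site peak in Ctrl. A reciprocal overlap of 50% left 3 others in H1-10 OE, with E2F3 folds of 5.07, 5.07 and 10.1, and the weak peak at 1.1 kb in Ctrl. Under that setting neither the 3 strongest peaks nor the start site counted as joint, since the E2F3 and Pol2S5p peaks differed in width.

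At MAP2, Pol2S5p had 3 peaks in H1-10 OE, 2 of which overlapped no Ctrl peak, against 42.8% of the whole list, and 1 peak in Ctrl. The 5′ end was occupied in both, with a fold of 6.60 in H1-10 OE and 11.9 in Ctrl, and the summits lay 47 and 41 bp into the gene. The peaks without a Ctrl peak lay at 52.5 kb, with a fold of 9.10, and at 72.0 kb, with a fold of 6.89. Both overlapped E2F3 peaks of H1-10 OE, with summits 102 and 144 bp apart, so 2 of the 4 E2F3 peaks at MAP2 were joint. Over the whole lists 30.2% of the E2F3 peaks and 3.15% of the Pol2S5p peaks of H1-10 OE were joint, and the choice of MAP2 for its E2F3 peaks bears on both counts. With a reciprocal overlap of 50% neither counted, because the E2F3 peaks were 1287 and 1213 bp wide and the Pol2S5p peaks 560 and 494 bp.

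At the 5′ end of MAP2, Pol2S5p had a peak in all 4 of its lists, while E2F3 had one in Ctrl and none in H1-10 OE. Over the whole E2F3 list of Ctrl, 97.4% of the peaks overlapped no E2F3 peak of H1-10 OE. The missing E2F3 peak is therefore not read as particular to MAP2. In Ctrl the E2F3 and Pol2S5p summits at the 5′ end of MAP2 lay 120 bp apart.

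The siRNA lists are a further pair of Pol2S5p libraries, and 2 of the 7 Pol2S5p places of H1-10 OE at SEMA3C had a peak in them. The share of the whole Pol2S5p list of H1-10 OE with a peak in them was not counted, so nothing is read from this count. At SEMA3C, Pol2S5p had 3 peaks in siE2F3 and 2 in siCtrl. The start-site peak was present in both, with a fold of 19.6 and a width of 1573 bp in siE2F3 and a fold of 9.75 and a width of 819 bp in siCtrl. The peak at 45.3 kb was present in both as well, with a fold of 5.03 in siE2F3 and 6.17 in siCtrl, and it was narrower in siE2F3 than its 481 bp in siCtrl. Its summits lay 13 and 20 bp from the E2F3 summit of H1-10 OE, in siE2F3 and in siCtrl. The peak at 45.3 kb was thus found in 3 of the 4 Pol2S5p lists and not in Ctrl.

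The third siE2F3 peak at SEMA3C lay at 10.6 kb, with a fold of 4.66. It overlapped no siCtrl peak, as did 22.9% of the whole siE2F3 list, and it overlapped an E2F3 peak of Ctrl. None of the 5 other internal Pol2S5p places of H1-10 OE had a peak in siE2F3 or in siCtrl, again without a whole-list share to set beside it. Both siCtrl peaks overlapped siE2F3. Over the whole siCtrl list 30.6% of the peaks overlapped no siE2F3 peak, so nothing is read from these 2 peaks.

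At MAP2, siE2F3 had 1 Pol2S5p peak and siCtrl had 2. The 5′ end was occupied in both, with a fold of 6.06 in siE2F3 and 10.0 in siCtrl. The peak at 72.2 kb, where the strongest E2F3 peak of H1-10 OE stood, was absent from the siE2F3 list. In siCtrl it had a fold of 3.89 and a -log10 q of 6.54, and its summit lay 15 bp from that of E2F3. Over the whole siCtrl list 30.6% of the peaks overlapped no siE2F3 peak, so 1 such peak of 2 is not read as particular to MAP2. The place at 52.5 kb had no peak in either siRNA list.

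The E2F3 peaks of H1-10 OE were also set against the other Pol2S5p lists. At SEMA3C, 7 of the 31 overlapped H1-10 OE, against 30.2% of the whole E2F3 list. Of the 31, 2 overlapped siE2F3 and 2 overlapped siCtrl, against 15.0% and 18.2% of the whole list, and 1 overlapped Pol2S5p of Ctrl, against 13.0%. The order of the lists was thus the order over the whole E2F3 list, apart from the tie of siE2F3 with siCtrl. At MAP2, none of the 4 overlapped siE2F3, 1 overlapped siCtrl and none overlapped Pol2S5p of Ctrl.

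The H3K27me3 lists held few or no peaks at the 2 genes. SEMA3C had no H3K27me3 peak in H1-10 OE or in Ctrl. MAP2 had 2 weak peaks in H1-10 OE, at 270.8 and 273.9 kb near its 3′ end, with folds of 4.18 and 3.47, and none in Ctrl. Both had a -log10 q under 5, a value reached by 3496 of the 18395 peaks of that list. They lay far from the E2F3 and Pol2S5p peaks of the gene. The Ctrl list of H3K27me3 was the shortest of the 8, with 2540 peaks, and a place without a peak may still carry the mark. Of the windows of 320.1 kb next to MAP2, that before the 5′ end held 6 H3K27me3 summits of H1-10 OE. That beyond the 3′ end held 1, and both held 0 in Ctrl. The difference at MAP2 is therefore not read as particular to the gene.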

How the data were processed

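Peak lists of 8 of the 22 samples were used; the other 14 were not analysed here. The tools named per the submitters' processing notes are FastQC, fastp and Bowtie, on build hg19. Which caller, cut-off and input library made each list is not given in the sources used here. Each deposited list was called on 1 library and gives a score, a fold enrichment (a ratio), and -log10 p and -log10 q values by the authors' caller. Read depth is unknown here, so folds and widths given side by side for different lists are not read as differences in level. The members and settings were chosen with earlier results of these data known. Coordinates are 1-based. Peaks overlapping a gene span widened by 5 kb were taken, and an overlap of 1 bp counted as shared or joint. Every E2F3 and H3K27me3 peak there is described, and of Pol2S5p all peaks, since they were few. An hg19 annotation was not used here, so the planned pathway and marker lists were not counted and the cell line was not checked against markers. RefSeq promoters of GRCh38.p14 gave strand, start sites and sequence; no coordinate was converted between builds. The overlap code was checked on simulated intervals. Python 3.11.15 and matplotlib 3.10.9 were used.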

Additional observations from a re-analysis of the deposited data

How the results depend on the processing

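Of 114 values recomputed under other settings, 98 stayed within 1.5 times the reported count. Among the 98 are H3K27me3 counts of 0 that stayed at 0, which stricter settings could not have moved. A -log10 q of at least 5 gave 15 E2F3 peaks of H1-10 OE at SEMA3C, all 15 absent from Ctrl. The share absent from Ctrl over the whole list was not counted at that threshold. SEMA3C then had 4 Pol2S5p peaks in H1-10 OE and 1 in Ctrl, and 3 joint peaks in H1-10 OE and 1 in Ctrl. MAP2 then had 0 H3K27me3 peaks of H1-10 OE. Equal numbers of the strongest peaks left 1 E2F3 peak and 1 joint peak of Ctrl at SEMA3C, and 0 H3K27me3 peaks of H1-10 OE at MAP2. Merging peaks within 1 kb gave 1 Pol2S5p peak of Ctrl at SEMA3C. A reciprocal overlap of 50% gave 3 joint peaks in H1-10 OE and 1 in Ctrl at SEMA3C, none of them among those kept at that -log10 q, and 0 in H1-10 OE at MAP2. When siCtrl replaced H1-10 OE as the Pol2S5p list, 2 joint peaks remained at SEMA3C and 1 at MAP2. Fewer peaks entering, or a stricter overlap, follows from how these alternatives are built. No paired analysis was possible because each group has 1 library and no test was made. Read depth is unknown here, so a missing peak does not show that a target was absent.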
